A study of Homo sapiens with 8 samples.

Results

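The 10 genes described here encode the core proteins of microRNA production and action: DROSHA, DGCR8, XPO5, DICER1, TARBP2, PRKRA and the Argonautes AGO1, AGO2, AGO3 and AGO4. They were found by matching RefSeq accessions, with versions removed, to gene symbols, which gave 13 accessions among 39745, for 10 of 19468 matched genes. The study asked how loss of TARBP2 changes transcript stability in MDA-LM2 cells, breast cancer cells derived from MDA-MB-231 by selection for growth in the lung. The 4 groups were cells given a TARBP2 siRNA and kept for 18 h in 10 µM alpha-amanitin, control cells kept for 18 h in the same drug, cells given a TARBP2 siRNA at 0 h, and control cells at 0 h. Treatment began 48 h after transfection. Each group had 2 arrays, and in the knock-down groups each array carried RNA from a different siRNA. The comparison cells are named siControl in the titles, while the series text calls them mock-transfected. All cells are of 1 line, and the knock-down was transient. Nothing in the labels says that the control arrays came from separate cultures, so the spread between arrays may be technical.

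MicroRNAs begin as hairpins in longer nuclear transcripts. The RNase III enzyme Drosha, held by its RNA-binding partner DGCR8 in the Microprocessor complex, cuts the hairpin free, and exportin 5 carries it to the cytoplasm. There the second RNase III enzyme, Dicer, trims it to a short duplex with the double-stranded RNA-binding proteins TRBP (from TARBP2) or PACT (from PRKRA) at its side, and 1 strand is loaded into an Argonaute, which it guides to target messages. Alpha-amanitin blocks RNA polymerase II, so what remains of a message after treatment reflects its decay.

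The array probes carry no gene names in the files, so neither the level of any of the 10 genes nor the depth of the TARBP2 knock-down was read, and the markers of the cell line could not be checked. Values per gene were taken from the authors' deposited table, where each accession has a single log2 ratio of stability, siTARBP2 over siControl, and a class, stabilized or background. A positive ratio means a higher stability value after TARBP2 knock-down. The ratio has no replicates, no error and no test of its own, and no source used here gives its formula. Every value given for a gene is therefore a description. Of 47321 array probes, 18664 were detected (p under 0.01 in at least 2 arrays), fewer than the 39745 accessions with a ratio. Some ratios may thus come from signal near the array background, and whether those of the 10 genes do is not known. Shares and percentiles are set against all accessions or genes, detected or not.

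None of the 10 genes was classed as stabilized after TARBP2 knock-down, and none had a ratio under 0.8-fold. In the authors' deposited table the stabilized class begins at a log2 value of 0.322. In the authors' deposited table, 0 of 13 accessions are classed as stabilized, where 3357 of all 39745 accessions are (8.45%). The same table has 0 of the 13 below 0.8-fold, against 2508 of all accessions (6.31%). Over 13 accessions those shares come to about 1 in each direction, so the empty counts are close to the background. Ratios of the 13 run in the authors' deposited table from -0.22 for a DICER1 accession to 0.29 for AGO2, with 7 above 0 and 6 below. Of the 13, 8 lie between the quartiles of all accessions in the authors' deposited table, -0.13 and 0.16, with 3 above and 2 below that range. The 3 above all belong to Argonautes, and the 2 below belong to DICER1 and DGCR8. Signs and classes can depend on how the arrays were scaled. For the probes, scaling by the array median raised the median difference between the 18 h changes of knock-down and control cells by 0.212. Whether the deposited ratios would move alike is not known. Before normalization, the upper-quartile signal at 18 h was 174 and 183.5 in siControl arrays, against 221.6 and 220 in siTARBP2 arrays.

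**Figure D1:**
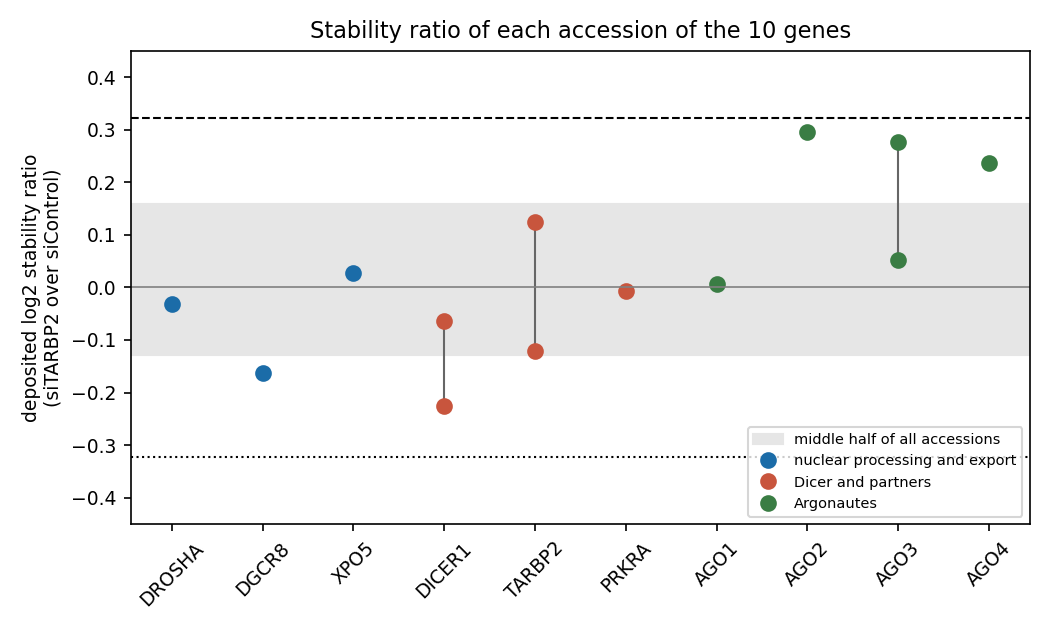
Each point is the deposited log2 stability ratio, siTARBP2 over siControl, of 1 accession (vertical axis), by gene (horizontal axis), and lines join accessions of a gene. The grey band spans the quartiles of all accessions in the authors' deposited table, the dashed line is the lowest ratio classed as stabilized (0.322) and the dotted line is 0.8-fold. All 13 points lie between the dashed and dotted lines, and the Argonautes AGO2, AGO3 and AGO4 hold the 3 above the band.

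The nuclear steps had ratios near or below 0. DROSHA, the nuclease of the Microprocessor, has a log2 ratio of -0.032 (0.978-fold) in the authors' deposited table, at percentile 41.4 of all accessions. DGCR8, which recognises the hairpin for Drosha, has -0.16 (0.893-fold) in the authors' deposited table, at percentile 20.3. It is the lowest gene mean of the 10. XPO5, the export receptor for the cut hairpin, has 0.028 (1.02-fold) in the authors' deposited table, at percentile 53. The nuclease and its partner thus both sit below the middle of the table, and the export receptor sits beside it.

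DICER1 is measured on 2 accessions, and both lie below 0. The authors' deposited table gives -0.22 (0.856-fold) for NM_030621, at percentile 13.2, and -0.064 (0.957-fold) for NM_177438, at percentile 35.6. Their mean of -0.14 is the second lowest of the 10 gene means in the authors' deposited table, after DGCR8. TARBP2, the targeted gene and a partner of Dicer, has accessions of opposite sign. NM_134323 is at -0.12 (0.920-fold) and NM_134324 at 0.12 (1.09-fold) in the authors' deposited table, which leaves a gene mean of 0.0017. PRKRA, the paralogue of TARBP2 whose product PACT also binds Dicer, is at -0.0073 (0.995-fold) in the authors' deposited table. Since the ratio compares stabilities and not levels, a value near 0 for TARBP2 does not bear on how far its message was depleted at 0 h. Its message is also the one that the siRNAs target in the knock-down groups. For TARBP2, siRNA action and another change in stability cannot be told apart here.

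Within their own loci, DGCR8 and DICER1 were the only ones of the 10 to hold a microRNA hairpin listed in the RefSeq tables for GRCh38.p14. A link between such hairpins and the ratios was not tested. The Microprocessor is known to cut a hairpin in the DGCR8 message itself. The 5 mature sequences that these 3 hairpin genes carry in RefSeq (GRCh38.p14) are shown because they are candidate products of the pathway encoded inside its own genes. They are written 5′ to 3′, with the seed (bases 2 to 8) in capitals. Those in DGCR8 lie on the plus strand and those in DICER1 on the minus strand.
hsa-miR-3618 (chr22:20085797-20085818): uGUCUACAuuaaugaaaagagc
hsa-miR-1306-5p (chr22:20086072-20086093): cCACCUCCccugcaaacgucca
hsa-miR-1306-3p (chr22:20086112-20086129): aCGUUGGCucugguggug
hsa-miR-3173-5p (chr14:95137961-95137982): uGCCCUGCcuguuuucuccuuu
hsa-miR-3173-3p (chr14:95137923-95137944): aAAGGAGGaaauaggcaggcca
No seed is shared among the 5. No accession matched MIR3618, MIR1306 or MIR3173, so their own ratios are not analysed here.

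Apart from AGO1, the Argonautes held the highest gene means of the 10. AGO2, the Argonaute best known for slicing its targets, has the highest value of the 10 genes in the authors' deposited table, 0.29 (1.23-fold), at percentile 89.8. It falls short of the lowest ratio classed as stabilized by 0.027 on the log2 scale. AGO4 has the next highest gene mean in the authors' deposited table, 0.24 (1.18-fold), at percentile 84.8. AGO3 has an accession close behind AGO2, NM_177422 at 0.28 (1.21-fold), and another near the middle of the authors' deposited table, NM_024852 at 0.052 (1.04-fold). AGO1 is at 0.0073 (1.01-fold) in the authors' deposited table, at percentile 49. All 5 Argonaute accessions lie above 0, as do 52.5% of all accessions in the authors' deposited table. For the 8 accessions of the other 6 genes, 2 lie above 0 and 6 below in the same table. With ratios centred on the median of all accessions, AGO1 is at -0.0047, below 0.

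By step, the median of the gene means in the authors' deposited table is 0.20 for the 4 Argonautes, -0.0073 for Dicer and its 2 partners, and -0.032 for the 3 genes of the nuclear steps. Over the 10 genes it is 0.0045, and over all 19468 genes 0.026 in the authors' deposited table. The grouping by step was made with the ratios known, so these medians are not tested against each other. The Argonautes are paralogues, and no source used here gives the transcript regions that their probes match.

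Of the 10 genes, 3 were measured on 2 accessions. The difference between them is 0.25 for TARBP2, 0.22 for AGO3 and 0.16 for DICER1 in the authors' deposited table. Over the 2131 genes with exactly 2 accessions in that table, the median difference is 0.20, with quartiles of 0.096 and 0.35. TARBP2 lies at percentile 58.9 of these differences, AGO3 at 55.3 and DICER1 at 41.7, so none of the 3 stands apart. Opposite signs, as for TARBP2, occur in 1001 of the 2131 genes (47%) in the authors' deposited table. Ordered by gene mean, the 10 genes run AGO2, AGO4, AGO3, XPO5, AGO1, TARBP2, PRKRA, DROSHA, DICER1 and DGCR8. Gaps between neighbours in that order are at most 0.14 in the authors' deposited table, which is smaller than the difference between accessions of any of these 3 genes. The largest gap, 0.14, is still above the lower quartile of 0.096 over the 2131 genes. Accessions of a gene are not replicates, so whether neighbours differ cannot be judged from this. The full span of the 10 means is 0.46.

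**Figure D2:**
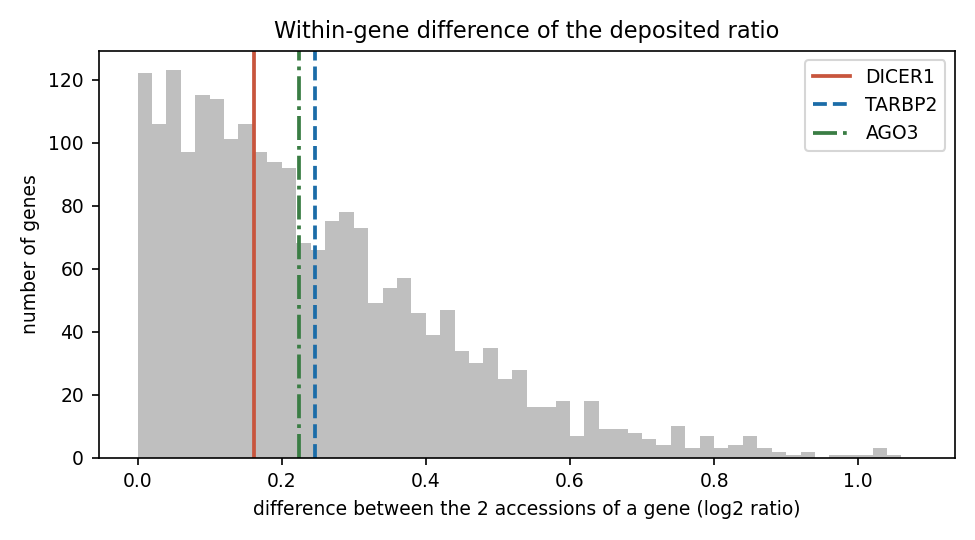
Bars count genes with exactly 2 accessions (vertical axis) by the difference between their deposited log2 stability ratios (horizontal axis, 0.02 per bar). The vertical lines mark DICER1 at 0.16, AGO3 at 0.22 and TARBP2 at 0.25, all in the bulk of the 2131 genes.

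The arrays give a scale for the error of such a ratio. The stability difference of a probe is its 18 h change in knock-down cells minus that in control cells. By limma over 18664 detected probes of 47321, its standard error had a median of 0.13 on the log2 scale, with 0.092 and 0.31 at the 5th and 95th percentiles (2 arrays in each of 4 groups). At the median error, a 95% interval reached 0.31 to either side. The limma test called 2067 probes (11.1%) at an adjusted p under 0.05, the smallest called difference being 0.35. Of 2756 probes with differences of 0.25 to 0.35 in either direction, the range that holds the AGO2 ratio, 0 were called by limma. On the authors' normalized values, limma called 192 probes in that range. The size of that ratio may not be on the same scale as a probe's difference. The differences had an SD of 0.37 over detected probes, against 0.23 for the ratios of all accessions in the authors' deposited table. The ratios were not filtered by detection here, so these spreads come from unlike sets. Ranked among detected probes only, 374 lay between the 89th and 91st percentiles of the difference, and limma called 115 of them. AGO2 lies in that range among the ratios of all accessions, and its rank among detected ones is not known. The 2067 calls became 5195 with arrays scaled by their median. They became 0 by limma with a replicate block, which pairs arrays by siRNA or replicate number (5184 at an unadjusted p under 0.05). Leaving out any 1 of the arrays at 0 h, or either knock-down array at 18 h, left 48 to 258 calls. Which side of the threshold a probe for AGO2 would fall on is not known.

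AGO4, AGO1 and AGO3 are consecutive protein-coding genes on chromosome 1 in the RefSeq annotation. Their gene means in the authors' deposited table are 0.24, 0.0073 and 0.16 in that order, so the middle gene of the cluster has the lowest of the 3. The AGO3 mean averages accessions at 0.052 and 0.28, the first of them near AGO1, and the order was not tested. AGO2, on another chromosome, has the highest ratio of the family. Of the genes that overlap a member's locus, 2 have a matched accession. POLR1C, a subunit of RNA polymerases I and III that overlaps XPO5, is classed as stabilized in the authors' deposited table at 0.39 (1.31-fold), where XPO5 is at 0.028. MAP3K12, a kinase gene that overlaps TARBP2, is at 0.044 (1.03-fold) in the authors' deposited table.

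Genes related to these 10 had gene means from -0.50 to 0.62 in the authors' deposited table. Over 64 such genes in 6 lists, 11 gene means (17.2%) are above the stabilized threshold and 3 (4.69%) below 0.8-fold in the authors' deposited table. Over all 19468 genes, the shares are 8.76% above and 5.39% below in that table, with a median of 0.077 for the 64 against 0.026 for all. The lists are described by these counts alone and were not tested. They were chosen with earlier results of these data known, so the shares above and below may reflect that choice.

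In the list of silencing-complex and GW182 proteins, 6 of 22 gene means (27.3%) are above that threshold and 1 (4.55%) is below 0.8-fold in the authors' deposited table, with a median of 0.17. The shares over all genes are 8.76% above and 5.39% below, and the difference was not tested. The highest is DDX6, a helicase of translational repression and decapping, at 0.57 (1.49-fold) in the authors' deposited table. Also above are the LIM-domain adaptor LIMD1 at 0.39, the SMN-complex proteins GEMIN4 at 0.37 and DDX20 at 0.34, and the helicase MOV10 at 0.35 in the authors' deposited table. FXR1, of the fragile X family, reaches 0.35 there as the mean of accessions at 0.53 and 0.17, only the first of which is classed as stabilized. Its relative FMR1 has the lowest value of this list in the authors' deposited table, -0.42 (0.749-fold). The GW182 scaffolds that bind Argonautes directly stay below the threshold in the authors' deposited table, at 0.22 for TNRC6B, 0.21 for TNRC6C and 0.032 for TNRC6A.

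Among 12 Microprocessor cofactors the median is -0.049 in the authors' deposited table, where 1 gene is above the stabilized threshold and 1 below 0.8-fold (8.33% each). These shares are near those of all genes. HNRNPA1, an RNA-binding protein that aids the cutting of particular hairpins, is at 0.62 (1.53-fold) in the authors' deposited table. HNRNPA1 has many processed pseudogenes, so its assignment is uncertain. ERH, a small partner of DGCR8, is at -0.50 (0.707-fold) in the authors' deposited table. Among 7 cofactors of nuclear export the authors' deposited table has 2 above (28.6%) and 0 below, and their median is 0.14. Over all genes the shares are 8.76% above and 5.39% below, and a list of 7 genes is too short for a reading. The 2 above are NUP153, a nucleoporin, at 0.46 (1.38-fold) and RCC1, the exchange factor of Ran, at 0.36 (1.29-fold) in the authors' deposited table. RAN itself, the GTPase that drives exportin 5, is at 0.27 (1.21-fold) there, below the threshold.

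Of 15 genes linked to the tailing or turnover of microRNAs and their precursors, 2 (13.3%) are above the stabilized threshold and 1 (6.67%) below 0.8-fold. Over all genes the shares are 8.76% and 5.39%. The median of the 15 is 0.088 in the authors' deposited table. ZC3H12A, an endonuclease that can cut precursor loops, is at 0.44 (1.36-fold) and TUT7, a uridylyltransferase, at 0.40 (1.32-fold) in the authors' deposited table. XRN1, the main cytoplasmic 5′ to 3′ exonuclease, is at -0.43 (0.743-fold) there. The 4 PIWI genes, the other branch of the Argonaute family, have 0 past either threshold and a median of 0.027 in the authors' deposited table. They run there from -0.27 for PIWIL3 to 0.15 for PIWIL2. The last list, of RNase III and Dicer-like helicase genes, also has 0 of 4 past either threshold, with a median of 0.089 in the authors' deposited table. Its ends are MRPL44, a mitochondrial ribosomal protein with an RNase III fold, at 0.30 (1.23-fold) and RIGI, a sensor of viral RNA, at -0.25 (0.840-fold) in the authors' deposited table. With 4 genes each, the PIWI list and this list are too short for a reading.

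**Figure D3:**
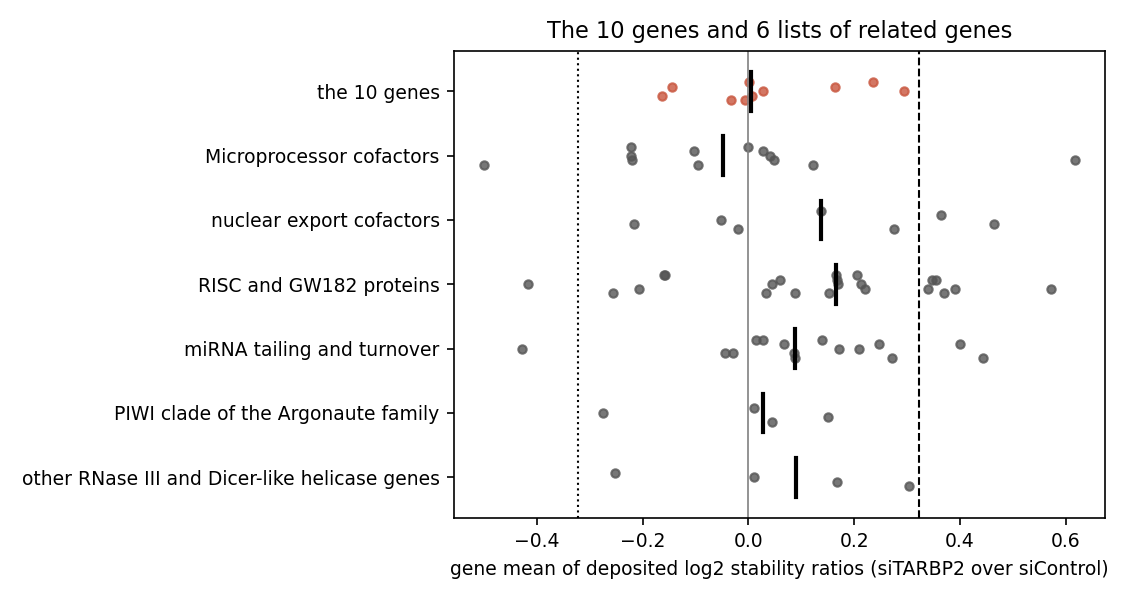
Each point is the mean deposited log2 stability ratio of 1 gene, siTARBP2 over siControl (horizontal axis), for the 10 genes and for 6 lists of related genes (rows). Black bars are medians, the dashed line is the lowest ratio classed as stabilized and the dotted line is 0.8-fold. The 10 genes all lie between these lines, while 11 genes of the lists lie above and 3 below.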

How the data were processed

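Total RNA from MDA-LM2 cells was measured on 8 single-colour Illumina BeadChip arrays. The authors deposited log2 ratios of stability with a class code per accession, per the file headers, and the class was found to be a threshold on the ratio. For 47321 probes the authors deposited intensity values before normalization and, beside each, a detection p-value, per the file headers. Normalized intensity values were also deposited by the authors, with sorted values that differ by at most 1.72% between arrays. The submitters' processing notes name lumi. Probes detected per array numbered 15541 to 17619, with the fewest in the control arrays at 18 h. The number of arrays limits the precision.

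Accessions were matched to symbols of the RefSeq table for GRCh38.p14, used for names, neighbours and microRNAs. Of 39745 accessions, 22411 matched. The other 17334 may hold older accessions of the same genes. Accessions were averaged per gene in pandas 2.3.3. For the error scale, intensities were processed with neqc in limma 3.58.1 (R 4.3.3, offset 16). Probes with a detection p-value under 0.01 in at least 2 arrays were kept. The model had 1 coefficient per group, with no replicate block, and the Benjamini-Hochberg threshold was 0.05. The fit was tested on simulated data. Detection columns share 1 name. Each was assigned to the signal before it, with which its rank correlation was -0.987 or stronger, against at most -0.938 for other arrays.

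The members and lists were chosen with earlier results of these data known. All 10 genes were named, with each list gene past a threshold, or the 2 farthest from 0. Genes named beyond this rule (RAN, TNRC6A, TNRC6B, TNRC6C, HSP90AA1, AJUBA, RANBP3, POLR1C, MAP3K12) were chosen after their values were seen.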

Additional observations from a re-analysis of the deposited data

How the results depend on the processing

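The choice of accession can move only the 3 genes with 2 accessions (TARBP2, DICER1 and AGO3). Taking the first, highest or lowest moved their means by 0.080 to 0.12 on the log2 scale. The other 7 genes have 1 accession, so that choice cannot move them, and all 13 accessions are curated, so keeping curated ones changes nothing. Centring on the median of all accessions lowers every ratio alike by 0.012. It takes AGO1 from 0.0073 to -0.0047 and the TARBP2 mean from 0.0017 to -0.010, so both change sign. With a 1.2-fold threshold, 1 gene mean (AGO2) was above it. Taken singly, the AGO3 accession NM_177422 (1.21-fold) was above it too. With 1.5-fold, the lists had 1 gene above and 0 below. The other settings left counts within 1.5 times. The median standard error of the array stability difference was 0.129 with a replicate block, 0.111 to 0.148 under other processing and 0.141 to 0.147 when each array was left out. Same-numbered arrays at 0 h and 18 h deviated with correlations of 0.027 in knock-down cells and -0.012 in control cells. The main fit did not take the numbers as pairs, although in knock-down cells the same number is the same siRNA. The fit with the replicate block does pair them. These error alternatives were chosen after seeing the data. The count of called probes was 2067 in the limma fit described (55.5% higher), 5195 with arrays scaled by the median (91.7% higher, the median difference shifted by 0.212), 2790 on the authors' normalized values and 384 without the filter. It was 0 with the block, where the lowest adjusted p was 0.0547, and 48 to 1547 when 1 array was left out. Called probes with differences of 0.25 to 0.35 numbered 192 on the authors' values, 130 with median scaling and 3 with cyclic loess. The alternatives for probes of the 10 genes, the use of synonyms and protein identities were not run, because probes carry no gene names, the table holds accessions only and no protein sequences were used here.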

Other observations

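Among the related genes, 5 were measured on 2 accessions, as TARBP2, DICER1 and AGO3 were. In the authors' deposited table FXR1 is at 0.53 and 0.17, HSP90AA1, a chaperone used in loading Argonautes, at 0.27 and 0.071, and TNRC6B at 0.28 and 0.16. AJUBA, a LIM-domain protein, is at 0.17 and -0.050, and RANBP3, a cofactor of nuclear export, at 0.19 and 0.084 in the authors' deposited table. Of these 5, only FXR1 has 1 accession classed as stabilized and 1 classed as background.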
